A study of Mus musculus with 8 samples.

Results

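The genes described here are 9 markers of cholangiocytes, the epithelial cells that line the bile ducts, and of the ductular reaction, the growth of small duct-like structures at the edge of the portal tract in injured liver. They are Krt7, Krt19, Epcam, Sox9, Ehf, Spp1, Cd24a, Prom1 and Cftr. They were taken by gene name from the array's own annotation, which holds 34825 named features, and 11 probes carried one of the 9 names. A gene entered the tests if the scanner software flagged a probe of it as well above background on 4 or more arrays out of 8. This left 7 of the 9 genes, each with 1 probe, among 18554 features tested. Krt7 was well above background on 2 arrays and Epcam on 0, so neither was tested. The detected gene nearest to that limit was Ehf, with 6 arrays.

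RNA came from whole livers of male mice. Strain and age are not given in the sources used here. All mice first had 5 weeks of fibrosis induction with carbon tetrachloride (CCl4) or with thioacetamide (TAA), both liver toxins. They were then followed for 1 or 2 weeks, with an injection every 3 days of a negative control oligonucleotide (NC) or of miR-29a. There are 8 combinations, each with 1 liver sample on 1 array per the series' design text, so no combination has a replicate. No uninjured liver was part of the set analysed here. A difference was therefore tested over the matched arrays, with a spread estimated from what the remaining factors did not account for. All arrays were on 1 slide. The CCl4 arrays filled one row of it and the TAA arrays the other, so slide row and agent cannot be told apart.

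Cholangiocytes modify bile as it leaves the liver, and they share keratins, adhesion molecules and transcription factors with the bipotent cells of the embryonic liver. When hepatocytes die and fibrosis advances, cells with these markers multiply around the portal tracts, and some hepatocytes begin to express part of the same set. In thioacetamide injury this ductular growth is a well-known part of the fibrosis, whereas carbon tetrachloride damages mainly the hepatocytes around the central vein. Several of the markers are also made elsewhere: Krt7 and Krt19 in the mesothelium of the liver capsule, Spp1 in macrophages, Cd24a and Prom1 in some blood cells.

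The injected oligonucleotide is labelled miR-29a, with no arm given. The RefSeq table of GRCm38.p6 holds its 3p arm on chromosome 6 from 31062673 to 31062694 on the minus strand, shown with the seed, bases 2 to 8, in capitals.
mmu-miR-29a-3p: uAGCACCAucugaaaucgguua
The same seed is carried by 3 mature mouse miRNAs of that table, miR-29a-3p, miR-29b-3p and miR-29c-3p. The next 5 probes are shown because the results turn on what they measure. Each is 60 bases long and has at least 1 forward reading frame without an internal stop codon. The Krt19 probe lies at chr11:100002392-100002451 and the Krt7 probe at chr15:101253718-101253777 (mm9). The longest run they share is 5 bases, in capitals, and 17 of 60 bases are identical when the probes are set end to end.
Krt19 probe: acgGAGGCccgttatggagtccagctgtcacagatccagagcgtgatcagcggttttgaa
Krt7 probe: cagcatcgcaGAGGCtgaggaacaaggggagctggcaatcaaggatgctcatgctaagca
The Spp1 probe lies at chr5:104868502-104868561 (mm9) and the Cftr probe at chr6:18270974-18271033 (mm9), where it ends in the stop codon of the chloride channel, in capitals.
Spp1 probe: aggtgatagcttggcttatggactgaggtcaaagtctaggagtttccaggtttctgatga
Cftr probe: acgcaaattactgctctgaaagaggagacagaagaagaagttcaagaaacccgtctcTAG
Prom1 has a brighter probe near the 3′ end, at chr5:44384861-44384920 (mm9), and a dimmer one further upstream in the transcript, at chr5:44397410-44397469 (mm9), both on the minus strand. The dimmer probe was well above background on 0 of 8 arrays.
Prom1 dimmer probe: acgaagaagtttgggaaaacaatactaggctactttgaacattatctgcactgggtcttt

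Levels are given as log2 of the background-corrected signal relative to the 75th percentile of the same array, so that 0 is the brightness of the probe at that percentile. Levels of different probes are not compared with each other. Over all tested features the arrays correlated with a mean r of 0.965 to 0.983 with the others, lowest for the TAA 1-week NC array, which also stood apart on the second principal component. Hepatocyte markers were well above background on every array, 10 of 10, with a summed level between 12.72 and 13.

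**Figure D1:**
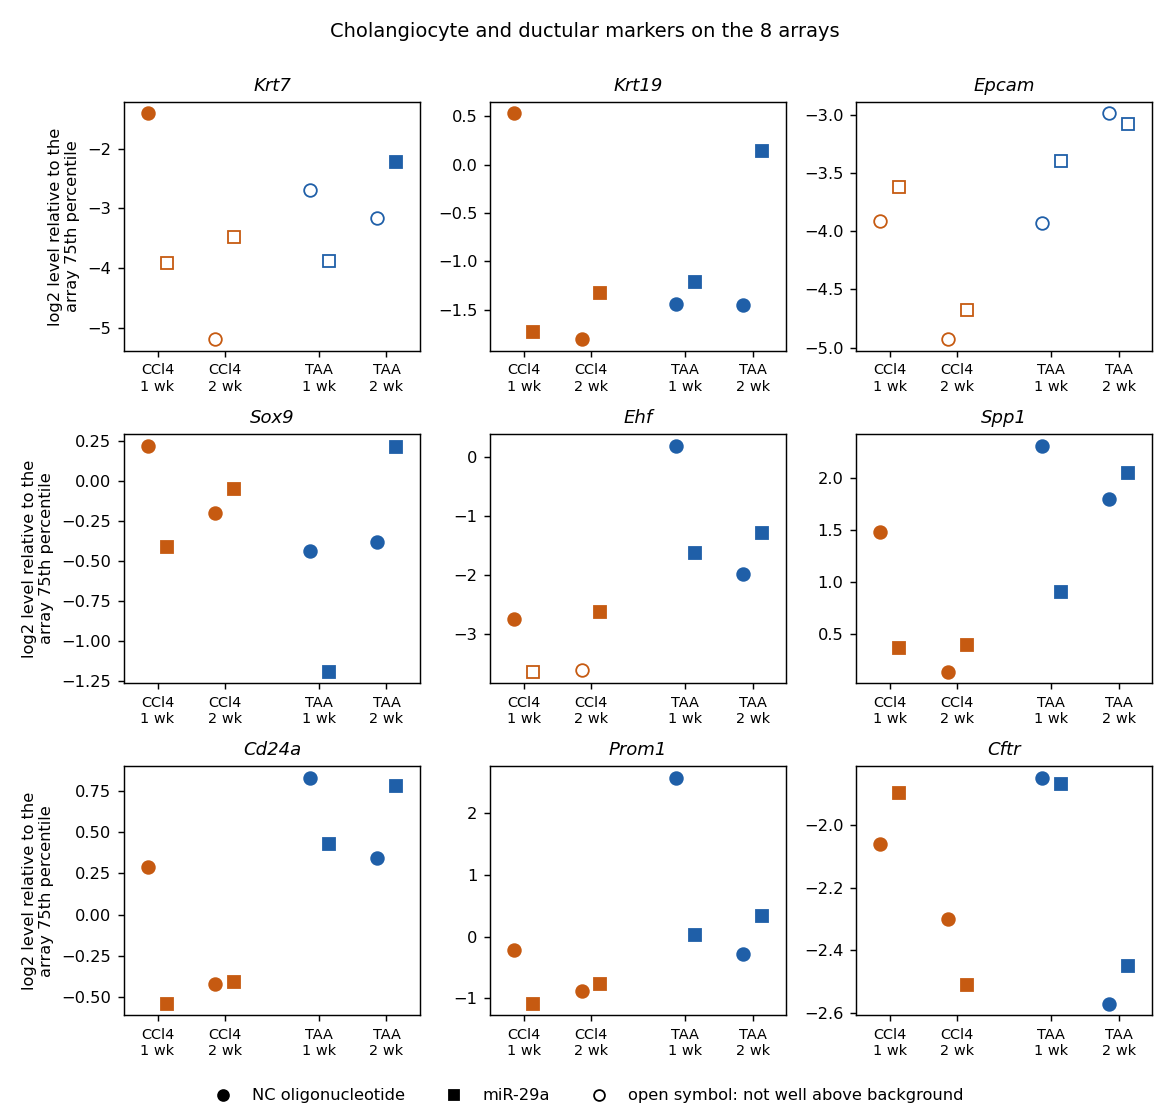
Each panel plots 1 marker, with the log2 level relative to the array's 75th percentile on the vertical axis and the agent and week on the horizontal axis; CCl4 arrays are orange, TAA arrays blue, circles NC and squares miR-29a. Ehf and Cd24a lie higher on all TAA arrays than on any CCl4 array, and Krt7 and Krt19 have their highest levels on the CCl4 1-week NC and TAA 2-week miR-29a arrays.

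Ehf, Prom1, Spp1 and Cd24a were higher after TAA than after CCl4 in all 4 matched pairs, while Krt19, Sox9 and Cftr had no such difference. Averaged over the pairs of each gene, the difference was 1.82-fold (Cd24a) to 3.92-fold (Ehf). Single pairs ran from 0.53 (Cd24a) to 2.94 (Ehf) on the log2 scale, both in the 1-week NC pair. None of the 7 passed the test over both weeks after Benjamini-Hochberg adjustment. At 1 week Ehf passed it, at 5.54-fold, as did 35.7% of all features. That log2 difference was 2.47, and 1.12 with the normexp background correction. Ehf entered the tests only through the agent in which it was higher, so the call is no separate support for the difference. The size for Ehf depends on the background correction, since 2 of its 4 CCl4 arrays were not well above background: over both weeks its log2 difference was 1.97, and 0.77 with the normexp correction (adjusted p = 0.103). TAA lay above CCl4 in all 4 pairs for 10.9% of all features tested.

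Ehf encodes an epithelium-specific transcription factor of the ETS family. On the CCl4 arrays its levels were -2.74 (1-week NC), -3.63 (1-week miR-29a), -3.60 (2-week NC) and -2.62 (2-week miR-29a), and the middle pair was not well above background. On the TAA arrays they were 0.19, -1.62, -1.98 and -1.29 in the same order, all well above background. Ehf thus passed the filter of 4 arrays only through the agent in which it was higher. The lowest TAA array lay above the highest CCl4 array, as for 5.44% of all features. The difference of TAA minus CCl4 was 1.97 ± 0.50 (log2, SE; adjusted p = 0.13 by limma). Within 1 week, where 1 of the 2 CCl4 arrays was well above background, it was 2.47 ± 0.71 (adjusted p = 0.0455), and within 2 weeks 1.47 ± 0.71 (adjusted p = 0.466). The change of that difference between the weeks was -0.99 ± 1.00 (adjusted p = 0.55), so the weeks were not shown to differ. Ehf was the 1 member called at 1 week, where 35.7% of all features were called and 12.6% were called higher in TAA. That call was kept without the TAA 1-week miR-29a array (3.51, adjusted p = 0.0213) and was lost without any 1 of the other 7 arrays. Its adjusted p was then between 0.0541 (either CCl4 2-week array left out) and 0.21 (CCl4 1-week miR-29a left out). The difference was 1.43 without the TAA 1-week NC array, and 1.12 with the normexp background correction (adjusted p = 0.0222).

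The second Ehf probe, which maps further upstream in the transcript, was well above background on 2 of the 4 TAA arrays (1-week NC and 2-week miR-29a) and on 0 of the 4 CCl4 arrays. Its TAA arrays averaged -2.43 against -4.55 on the CCl4 arrays. No fold is given for this probe, because 2 of the 4 TAA values and all 4 CCl4 values were not well above background. In the 1-week miR-29a pair and the 2-week NC pair this probe was not well above background on either array, so it gives no direction there.

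**Figure D2:**
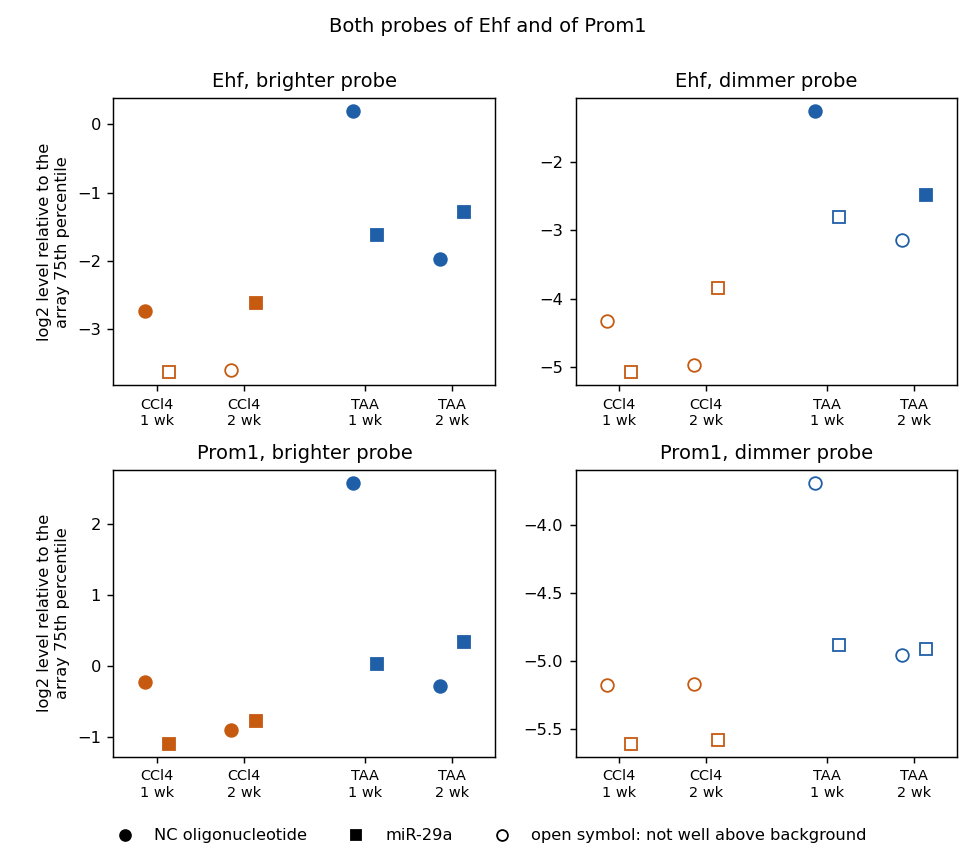
The panels plot the log2 level relative to the array's 75th percentile of both probes of Ehf (top) and Prom1 (bottom) by agent and week, with CCl4 in orange, TAA in blue, circles for NC, squares for miR-29a and open symbols for values not well above background. The highest array is TAA 1-week NC in all 4 panels, and the dimmer Prom1 probe is open on all 8 arrays.

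Spp1 encodes osteopontin, a secreted phosphoprotein of bile duct epithelium and macrophages. Its CCl4 levels were 1.48, 0.37, 0.14 and 0.40 (1-week NC, 1-week miR-29a, 2-week NC, 2-week miR-29a), and its TAA levels were 2.31, 0.90, 1.80 and 2.05 in that order. The groups overlapped only through the CCl4 1-week NC array, which lay above the TAA 1-week miR-29a array. The difference was 1.16 ± 0.37 (adjusted p = 0.133), with 0.68 ± 0.48 at 1 week (adjusted p = 0.307) and 1.65 ± 0.48 at 2 weeks (adjusted p = 0.439). At 2 weeks 0% of all features were called.

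Cd24a encodes a small glycosylated surface protein of biliary and progenitor cells. Its levels were 0.29, -0.54, -0.42 and -0.41 on the CCl4 arrays and 0.83, 0.43, 0.34 and 0.78 on the TAA arrays. The groups did not overlap, and the CCl4 1-week NC array came closest to the TAA arrays. The difference was 0.86 ± 0.22 (adjusted p = 0.13), with 0.75 ± 0.31 at 1 week and 0.98 ± 0.31 at 2 weeks.

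Prom1 encodes prominin-1 (CD133), a membrane protein of progenitor and duct cells. Its CCl4 levels were -0.22, -1.09, -0.89 and -0.77, and its TAA levels 2.58, 0.03, -0.28 and 0.34. The TAA 1-week NC array stood far above the other 7. The difference of 1.41 ± 0.53 (adjusted p = 0.154) became 0.80 ± 0.29 without that array (adjusted p = 0.27). The same array had the highest summed level of neutrophil markers (8.86, against 6.52 to 7.37 on the other 7) and of Kupffer cell markers (8.24, against 5.24 to 6.13). On it 10 of 10 neutrophil markers and 8 of 8 Kupffer cell markers were well above background. On the other 7 arrays the neutrophil sum was mostly Csf3r, at 6.31 to 7.30, against 7.01 on this array. The median of the neutrophil list was 2.59 on this array and -1.48 to 0.09 on the other 7. The part of these cells in the Prom1 level was not tested.

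Krt19, a keratin that fills the cytoskeleton of duct cells, differed between agents by 0.097 ± 0.65 (adjusted p = 0.926). Its direction turned with the pair: TAA minus CCl4 was -1.97 and 0.52 at 1 week and 0.37 and 1.47 at 2 weeks (NC, then miR-29a). At 1 week the difference of -0.72 ± 0.87 became 0.79 without the CCl4 1-week NC array and -2.24 without the CCl4 1-week miR-29a array. Sox9, the transcription factor that marks the ductal plate and the duct lineage, had CCl4 levels of 0.22, -0.41, -0.20 and -0.05 and TAA levels of -0.44, -1.19, -0.38 and 0.21. The agents overlapped, and the difference was -0.34 ± 0.28 (adjusted p = 0.429). At 1 week it was -0.72 ± 0.36 (adjusted p = 0.17). With arrays scaled to their median it was called there, lower in TAA (-1.31 ± 0.31, adjusted p = 0.0104). On that scale 11806 of the 18554 features were called at 1 week, and the median difference over all features was -0.75. Within 2 weeks the Sox9 difference was 0.04 ± 0.36 (adjusted p = 0.968). With the 1-week pair of either agent left out the value is the same, since agents are then compared at 2 weeks alone. The Sox9 probe is printed at 10 spots per array, and the SD between those spots was 0.076 to 0.267 on the log2 scale. Cftr, the chloride channel that drives bicarbonate secretion into bile, differed between agents by 0.0098 ± 0.13 (adjusted p = 0.963). Over 18 alternatives this difference ran from -0.38 to 0.093 and was called in 0. TAA was above CCl4 in 3 of the 4 Cftr pairs, but in 0 with quantile normalization or with arrays scaled to their median.

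Epcam, an adhesion molecule of ducts and progenitors, stayed below detection on all 8 arrays, so its levels of -4.93 to -2.99 carry no comparison. Its probe covers mm9 positions 88048972 to 88049800 of chromosome 17, more than its own 60 bases, so it does not match 1 unbroken run of the genome.

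Over both weeks 0 of the 18554 features were called by limma for the agent (0%), with 5326 at an unadjusted p under 0.05, 4 of the 7 members among them. The members' median difference was 0.86, against -0.13 over all features. Scaling each array to its median in place of the 75th percentile moved the median of all features to -0.52. On that scale 5472 of the 18554 features were called, and among the members Ehf alone (1.58, adjusted p = 0.043). Prom1 stayed higher in TAA in 4 of 4 pairs. Spp1 and Cd24a were each higher in 3 of 4, with smallest pair differences of -0.065 and -0.055. Whether TAA livers held more duct cells or more RNA of these genes per cell cannot be told apart in whole liver.

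**Figure D3:**
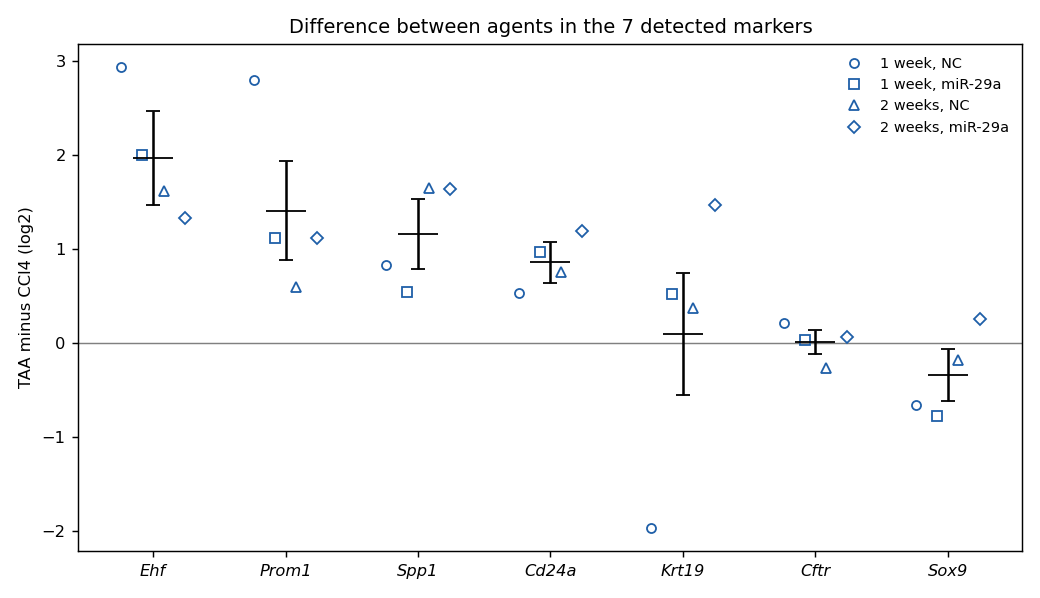
For each of the 7 detected markers the black bar and whiskers give the difference of TAA minus CCl4 in log2 units with its standard error from the additive fit on 8 arrays, and the blue symbols give the 4 matched pairs. All 4 pairs lie above 0 for Ehf, Prom1, Spp1 and Cd24a, while the Krt19 pairs run from -1.97 to 1.47.

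The summed level of lipid-laden macrophage markers, a second source of Spp1, was 5.82 to 6.88 on the CCl4 arrays and 6 to 7.38 on the TAA arrays, with 8 or 9 of its 10 genes well above background on each array. Of its 9 tested genes, 5 were higher and 4 lower in TAA over both weeks, with a median of 0.28. Gpnmb was lower by 1.48 ± 0.69 (adjusted p = 0.205), and Cd63 was higher by 1.26 ± 0.18 (adjusted p = 0.13). Kupffer cell genes were higher in TAA for 8 of 8 tested over both weeks (median 0.64), for 8 of 8 at 1 week (median 0.74) and for 7 of 8 at 2 weeks (median 0.47), with 0 called. The part of these cells in the differences of Spp1 and the other markers was not tested. Of 8 tested osteopontin receptor genes, 1 was called higher and 1 lower at 1 week, against 35.7% of all features called in either direction. Itga4, the integrin chain alpha 4, was higher by 0.98 ± 0.28 (adjusted p = 0.0434), and Itga8 was lower by 1.33 ± 0.39 (adjusted p = 0.047).

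The 1-week contrast between agents was then read in the other genes of duct biology, from lists that were chosen with earlier results of these data known. Of all features 12.6% were called higher and 23% lower in this contrast, and the counts of each list are to be read against those shares. Of 23 tested biliary identity and transport genes, 2 were called higher and 0 lower at 1 week, with a median of -0.065 against -0.16 over all features. The called genes were Onecut2 (0.54 ± 0.15, adjusted p = 0.0376) and Bcl2 (0.47 ± 0.13, adjusted p = 0.0441), which were named after their values were seen. The largest difference was that of Onecut1, a hepatobiliary transcription factor, at 2.66 ± 0.86 (adjusted p = 0.0624). Aqp1, the water channel of cholangiocytes, was at -0.93 ± 0.29 (adjusted p = 0.0582).

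Of 13 tested Notch pathway genes, which direct duct formation, 1 was called higher and 4 lower in TAA at 1 week, against 35.7% of all features called. Hes1, a direct Notch target, was lower by 1.59 ± 0.31 (adjusted p = 0.0159) and the receptor gene Notch2 by 0.87 ± 0.14 (adjusted p = 0.0104). Dll4, a ligand, was at -1.21 ± 0.56 (adjusted p = 0.147). The gene called higher was Notch3 (0.78 ± 0.23, adjusted p = 0.0478), named after its value was seen. Of 12 tested YAP and TEAD targets and partners, 0 were called higher and 4 lower, among them Wwtr1, which encodes TAZ (-1.11 ± 0.23, adjusted p = 0.0182), and the kinase gene Lats2 (-0.84 ± 0.14, adjusted p = 0.0111). The medians of the Notch and YAP lists were -0.37 and -0.52, and the share called in each was close to the 35.7% of all features. Of 9 tested ductular niche signals, 1 was called higher, Vegfa (0.84 ± 0.16, adjusted p = 0.0158), and 0 were called lower.

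Of 11 tested liver progenitor genes, 2 were called higher and 2 lower at 1 week, with a median of 0.17. Afp, the fetal serum protein, was higher by 1.22 ± 0.26 (adjusted p = 0.0193), while the Wnt target Axin2 was lower by 1.35 ± 0.22 (adjusted p = 0.00956). Of 19 tested epithelial junction and epithelial factor genes, 0 were called higher and 5 lower. The tight junction genes Ocln and Cldn2 were lower by 1.92 ± 0.32 (adjusted p = 0.0101) and 1.56 ± 0.44 (adjusted p = 0.0436). Grhl2, an epithelial transcription factor, was at 1.67 ± 0.68 (adjusted p = 0.11). Junction genes are also made by hepatocytes, which form most of the liver's mass. In this contrast 4271 features were called lower and 2345 higher in TAA.

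The follow-up time was set against the same markers to ask how they moved between 1 and 2 weeks after induction. Cftr was lower at 2 weeks in 4 of 4 matched pairs, by 1.45-fold on average, and the other 6 members had no common direction. Its 1-week levels were -2.06, -1.90, -1.85 and -1.87 (CCl4 NC, CCl4 miR-29a, TAA NC, TAA miR-29a), and its 2-week levels were -2.30, -2.51, -2.57 and -2.45. The weeks did not overlap, which held for 2.57% of all features. Cftr was among the 6.07% of features that were lower at 2 weeks in all 4 pairs. The difference was -0.54 ± 0.13, with an unadjusted p of 0.00478 and an adjusted p of 0.805 by limma. Within CCl4 it was -0.42 ± 0.15 (adjusted p = 0.217) and within TAA -0.65 ± 0.15 (adjusted p = 0.0799). The sign was the same in all 18 alternatives run, between -0.65 and -0.28, and the value nearest to 0 came with the normexp background correction.

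For the week, 0 members and 0% of all features were called, with 963 features at an unadjusted p under 0.05. Within CCl4, 0 members were called, against 1.08% of all features, and within TAA 0 members, against 0%. The remaining members differed by -0.72 ± 0.53 (Prom1), -0.42 ± 0.50 (Ehf), 0.35 ± 0.28 (Sox9), -0.18 ± 0.22 (Cd24a), -0.17 ± 0.37 (Spp1) and -0.15 ± 0.65 (Krt19), with adjusted p-values of 0.883 to 0.978. For the change of the agent difference between weeks, 0 members were called, against 9.8% of all features. The largest such terms among the members were those of Krt19 (1.64 ± 1.22, adjusted p = 0.417) and Prom1 (-1.10 ± 1.06, adjusted p = 0.528).

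The oligonucleotide comparison asks whether miR-29a changed the markers relative to the control oligonucleotide. Averaged over agents and weeks it did not separate them: differences ran from -0.67 ± 0.53 (Prom1) to 0.01 ± 0.13 (Cftr), and 0 members were called, with 0% of all features called and 525 at an unadjusted p under 0.05. Behind those averages lay pairs of opposite sign. Sox9, Spp1, Ehf, Cd24a and Prom1 were each lower with miR-29a in both 1-week pairs and higher in both 2-week pairs, a pattern held by 5.01% of all features. By contrast 0 members were lower with miR-29a in all 4 pairs, against 5.7% of all features, and 0 were higher in all 4, against 10.3%.

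Within 1 week the difference of miR-29a minus NC was -1.71 ± 0.53 for Prom1, -1.35 ± 0.40 for Ehf and -1.26 ± 0.34 for Spp1. Within 2 weeks these were 0.37 ± 0.53, 0.84 ± 0.40 and 0.26 ± 0.34. Each had an adjusted p of 1 by limma, and in both weeks 0% of all features were called, with 715 (1 week) and 258 (2 weeks) at an unadjusted p under 0.05.

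For Ehf the difference of miR-29a minus NC at 1 week was -0.88 in CCl4 and -1.81 in TAA, and at 2 weeks it was 0.98 and 0.69. In each CCl4 pair 1 array was not well above background, and with the normexp correction the CCl4 values were -0.079 and 0.19. For Prom1 it was -0.87 and -2.55 at 1 week, and 0.11 and 0.63 at 2 weeks. For Spp1 it was -1.12 and -1.40 at 1 week, and 0.26 and 0.25 at 2 weeks. In these 3 genes the 1-week pairs moved further than the 2-week pairs, except for Ehf in CCl4. For Sox9 the 1-week values were -0.63 and -0.75 and the 2-week values 0.15 and 0.59. For Cd24a they were -0.83 and -0.40, then 0.013 and 0.44. The CCl4 2-week values of Cd24a, Prom1 and Sox9 were thus close to 0. Scaled to the array median, the Cd24a value of that pair was -0.051, so that 4 of the 5 genes kept the pattern.

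The change of the miR-29a difference from 1 to 2 weeks was 2.19 ± 0.57 for Ehf, 2.08 ± 0.75 for Prom1, 1.52 ± 0.49 for Spp1, 1.06 ± 0.43 for Sox9 and 0.84 ± 0.32 for Cd24a. Outside the pattern it was 2.05 ± 1.11 for Krt19 and -0.11 ± 0.28 for Cftr. Adjusted over all features by limma, each of the 7 had a p of 1. With the normexp correction the Ehf term was 0.75 ± 0.42. For this term 0% of all features were called, and 358 had an unadjusted p under 0.05. The 5 genes were read on the same 8 arrays, so they are not separate observations of the pattern. Without the TAA 1-week NC array the Prom1 term was 1.15 ± 0.37 (adjusted p = 1), and without the CCl4 1-week NC array it was 3.00 ± 0.37 (adjusted p = 0.459).

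Krt19 fell outside the pattern through the TAA 1-week pair, with values of -2.26 and 0.23 at 1 week and 0.48 and 1.59 at 2 weeks (CCl4, then TAA). Cftr moved by 0.16 and -0.026 at 1 week and by -0.21 and 0.12 at 2 weeks, with no common direction within either week. Krt7 gives no comparison here, since neither array of its TAA 1-week and CCl4 2-week pairs was well above background. For the change of the miR-29a difference with the agent, 0 members and 0% of all features were called, and the term of Krt19, 1.80 ± 1.18 (adjusted p = 1), was the largest.

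The summed mesothelial level had the same order of pairs: with miR-29a it went from 4.07 to 1.36 (CCl4) and from 1.48 to 0.70 (TAA) at 1 week, and from 0.67 to 1.66 and from 1.19 to 2.44 at 2 weeks. Averaged over agents, 6 of 6 tested mesothelial genes were lower with miR-29a at 1 week and higher at 2 weeks, although in the TAA 1-week pair Wt1 went from -1.81 to -1.37. The summed Kupffer cell level went from 5.77 to 6.13 in CCl4 and from 8.24 to 5.74 in TAA at 1 week. On the same average, 8 of 8 tested Kupffer cell genes were lower with miR-29a in both weeks, with medians of -1.04 and -0.34. At 1 week, however, each was higher with miR-29a in CCl4 and lower in TAA, as Marco (3.11 to 3.61, and 6.49 to 3.02). At 2 weeks each was lower in CCl4, and the TAA pair was mixed. There Marco went from 3.03 to 3.25 and Vsig4 from 2.78 to 2.67. Of the 9 tested lipid-laden macrophage genes, 9 were lower at 1 week (median -0.64) and 6 at 2 weeks (median -0.15). In the CCl4 1-week pair some of them were higher with miR-29a, as Cd68 (0.88 to 1.11), and others lower, as Lpl (3.92 to 2.99). Of the 7 tested neutrophil genes, 5 were lower at 1 week (median -2.42) and 4 at 2 weeks (median -0.11). The 1-week average joins unlike pairs. The summed neutrophil level fell from 8.86 to 7.37 in TAA but was 6.52 and 6.55 in CCl4 (NC, then miR-29a). On the TAA 1-week miR-29a array Csf3r alone was at 7.30, so that sum is mostly this 1 gene. The median level of the 10 listed neutrophil genes went from 2.59 to -1.48 in TAA and from 0.09 to -0.11 in CCl4. S100a8, for example, fell from 6.02 to -1.38 in TAA and from 0.29 to -0.21 in CCl4. The large 1-week median thus leans on the TAA 1-week NC array. Of the 7 tested activated stellate cell genes, 6 were lower at 1 week (median -0.32) and 6 higher at 2 weeks (median 0.13). Over all features 60.7% lay above 0 in the 1-week contrast and 48% in the 2-week contrast. The stellate average for 1 week also joins opposite pairs. Col1a1 fell in CCl4 (2.80 to 1.41) but rose in TAA (1.46 to 1.71), and Col1a2, Col3a1 and Pdgfrb had the same directions. Des and Timp1 fell in both of those pairs, and Acta2 rose in CCl4 (-0.07 to 1.22). Averaged over agents, Timp1, an inhibitor of matrix metalloproteinases, was at -2.13 ± 0.20 and 0.58 ± 0.20 (adjusted p = 1 for both). The part of these cell types in the member differences was not tested.

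**Figure D4:**
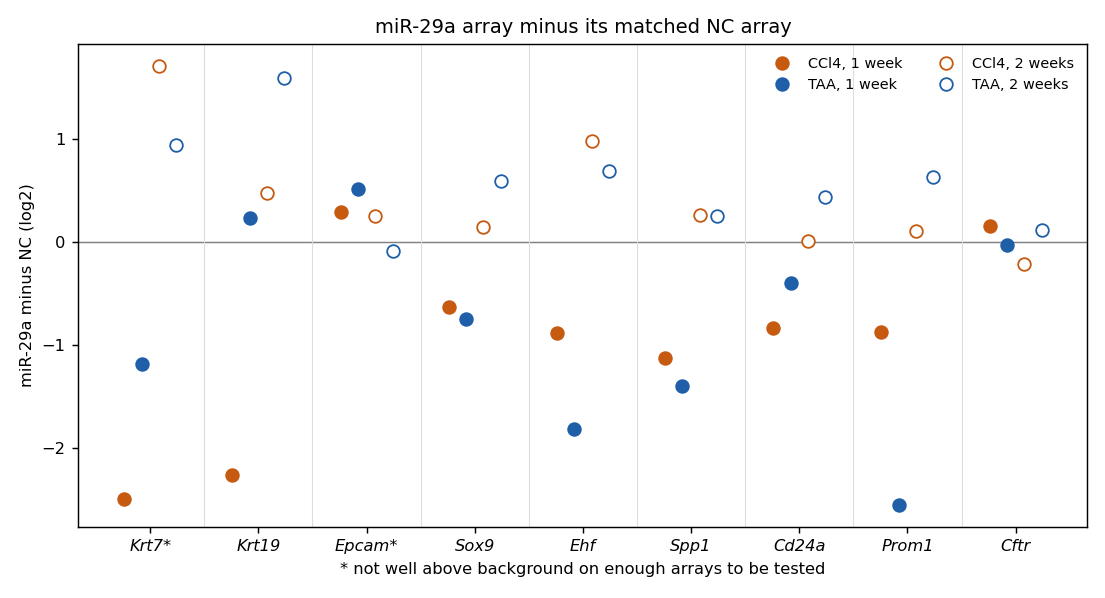
The vertical axis gives the log2 level on the miR-29a array minus that on the NC array of the same agent and week, for the 9 markers; filled symbols are 1 week, open symbols 2 weeks, orange CCl4 and blue TAA. For Sox9, Ehf, Spp1, Cd24a and Prom1 both filled symbols lie below 0 and both open symbols above it, and Cftr stays between -0.21 and 0.16.

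Krt19 and Krt7 varied over the arrays in their own way. Krt19 was at 0.53 on the CCl4 1-week NC array and 0.14 on the TAA 2-week miR-29a array, and between -1.81 and -1.21 on the other 6. Krt7 was well above background on these same arrays and no other, at -1.41 and -2.22. The summed level of 8 mesothelial markers was also highest there, at 4.07 and 2.44, against 0.67 to 1.66 on the other 6. All 8 of those markers were well above background on the CCl4 1-week NC array, against 2 to 6 on the other 7. Msln, the mesothelial surface protein mesothelin, was well above background on all 8 arrays, with its highest levels on this pair of arrays, 3.28 and 1.66.

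Over the 8 arrays Krt19 followed the summed mesothelial level with Pearson's r = 0.90 (exact permutation p = 0.00672) and Spearman's rho = 0.74 (exact permutation p = 0.0458). This is 1 of 72 relations computed between the 9 markers and 8 lists of other cell types, with an adjusted p of 0.242 for r and 0.671 for rho. Without the CCl4 1-week NC and TAA 2-week miR-29a arrays r was 0.16, so that the relation rests on them. Krt19 was about as strongly related to the summed erythroid level, which was lowest on these arrays (6.94 and 6.64). There r was -0.88 (exact permutation p = 0.0149, adjusted p = 0.357) and rho -0.71 (exact permutation p = 0.0576, adjusted p = 0.671), with r = -0.33 without them. No relation is given for Krt7, since 6 of its 8 values were not well above background. Within each agent there were only 4 arrays, too few for a value of their own. The part of mesothelium or blood cells in the keratin signal was not tested further.

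**Figure D5:**
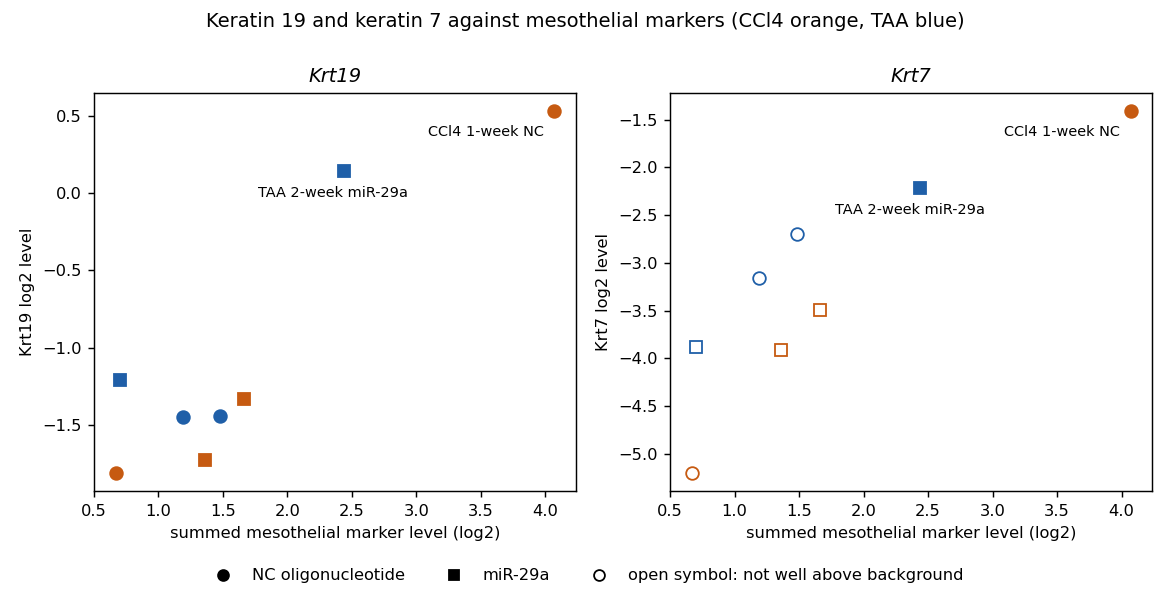
The horizontal axis gives the log2 of the summed signal of 8 mesothelial markers and the vertical axis the log2 level of Krt19 (left) or Krt7 (right) on each of the 8 arrays; open symbols were not well above background. The CCl4 1-week NC and TAA 2-week miR-29a arrays are highest on both axes, and Krt7 is filled on them alone.

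The genes whose levels were most like a member's over the 8 arrays were taken from features with a symbol that were well above background on all 8. Krt19 was most like Efemp1 (r = 0.949), Cyp2s1 (0.947) and Wt1 (0.941), the last a transcription factor of mesothelium and a member of the mesothelial list. Ehf was most like AA986860 (0.970), the cytochrome gene Cyp4f18 (0.969) and Olfr700 (0.962). Prom1 was most like Ppfia4 (0.992), Gm5068 (0.987) and Gng2 (0.986), each with its highest level on the TAA 1-week NC array. Cd24a was most like Tmsb10 (0.979), the chemokine gene Cx3cl1 (0.967) and Sftpd (0.958). Spp1 was most like Svep1 (0.950), Wfdc15b (0.946) and Oasl2 (0.945). Cftr was most like Tmem237 (0.987), Gm13304 (0.947) and Ybey (0.940), and Sox9 like Prim2 (0.948), Gata6 (0.941) and Lrrc59 (0.940). The mean standardised level of the 7 tested markers was most like Svep1 (0.973), Evpl (0.966), Cx3cr1 (0.960), Oasl2 (0.955) and Cx3cl1 (0.949). With 8 arrays and many features these values rank likeness and carry no test.

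Among the markers, Ehf, Prom1, Spp1 and Cd24a shared their highest array, TAA 1-week NC. Their lowest was CCl4 1-week miR-29a for Ehf, Prom1 and Cd24a, and CCl4 2-week NC for Spp1. Because Ehf and Cd24a do not overlap between agents, no correlation of either with another marker is given, and the likeness values above for these genes include that separation. Spp1 and Prom1 overlap between agents, each only through the CCl4 1-week NC array. For them r was 0.79 (exact permutation p = 0.00201) and rho 0.88 (exact permutation p = 0.00724). Adjusted over 21 member pairs, these p-values were 0.0105 and 0.0304. The permutation treats the 8 arrays as exchangeable, although both genes were higher in TAA in all 4 matched pairs. The p-values therefore include that shared difference and do not measure a relation apart from the agent. Without the CCl4 2-week NC and TAA 1-week NC arrays, the 2 farthest from the Spp1 median, r was 0.80. The arrays left still hold the agent difference, so this value does not separate the relation from it.

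Promoters of the markers were searched for the ETS-type motif AGGAAGT on both strands, over the 250 bases before each start site. This motif was chosen because Ehf is an ETS factor, with the levels above already known. A role of Ehf at any of these genes was not tested. The RefSeq table of GRCm38.p6 holds 7 start sites for 5 of the 9 genes (Krt7, Epcam, Spp1, Prom1 and Cftr). The motif was in 2 of these 7 windows, 1 of Spp1 and 1 of Prom1, and in 7.7% of 32851 windows of that length. In Spp1 it begins 112 bases before the start, on the plus strand at chr5:104434861-104435110, and is shown in capitals.
Spp1 promoter: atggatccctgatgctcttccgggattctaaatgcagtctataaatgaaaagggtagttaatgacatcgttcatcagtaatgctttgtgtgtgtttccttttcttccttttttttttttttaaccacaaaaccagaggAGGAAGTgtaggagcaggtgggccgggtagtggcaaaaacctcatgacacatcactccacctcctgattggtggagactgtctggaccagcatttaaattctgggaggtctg
In Prom1 the match begins 71 bases before the second listed start. The RUNX-type motif AACCACA was found 129 bases before the same Spp1 start, and in 4.4% of all windows, and does not overlap the ETS-type match. The TEAD-type motif GGAATG was in 0 of the 7 windows and in 12.6% of all, and the AP-1-type motif TGAGTCA in 1 Prom1 window and in 4.5% of all. A match in these letters is a description and not a site.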

How the data were processed

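Liver RNA was measured on 8 one-colour Agilent arrays, 1 per combination of agent, week and oligonucleotide. The authors' deposited files hold Agilent Feature Extraction (version 10.10.1.1, per the file headers) spot intensities with mm9 probe positions. The authors' deposited log2 matrix equals log2 of the processed intensity minus 1 constant per array, within 0.01 for 100% of probes. Its column medians are -4.062 to -3.445, its direction is that of the signal, and the basis of its centring is unknown.

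Here, log2 processed signal minus each array's 75th percentile was used, without control and outlier spots. Between 43.95% and 48.38% of spots per array were well above background. Replicate spots were averaged per probe, and the brightest probe per gene well above background on at least 4 arrays was kept. limma 3.58.1 (R 4.3.3) fitted agent, week and oligonucleotide (4 residual degrees of freedom), or these plus 1 interaction (3), with Benjamini-Hochberg adjustment over 18554 features at 0.05. Because each combination has 1 array, p-values measure only the spread left between arrays. Precision is limited by having 8 arrays. The fits were tested on simulated data. Correlations used exact permutation in Python 3.11.15 with scipy 1.17.1.

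Members and lists were chosen with earlier results of these data known. Named genes were the 9 members, up to 3 genes with the largest difference per list and comparison, and the 5 (or 3 per member) most alike genes. The result of 1 gene that this rule names is not reported here. Promoters were available for 5 of 9 members, and the scan covers those alone. Summed marker levels are log2 of summed linear signals. Alternatives tried were normexp background correction (offset 50), quantile or median scaling, the authors' matrix, other filters, each probe alone, matched combinations as a block, and leaving out arrays or pairs.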

Additional observations from a re-analysis of the deposited data

Results flagged for a closer look

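Of 54 groups of 4 arrays examined (9 genes in 6 groups each), 3 held an array outside the others by Dixon's criterion, where chance gives about 1 in 20 groups. Krt19 on the CCl4 1-week NC array, at 0.53, lay apart from the other NC arrays (-1.81 to -1.44). Krt19 on the TAA 2-week miR-29a array, at 0.14, lay apart from the other TAA arrays (-1.45 to -1.21). Cd24a on the CCl4 1-week NC array, at 0.29, lay apart from the other CCl4 arrays (-0.54 to -0.41).

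In 5 of the 7 tested genes both 1-week pairs moved down with miR-29a and both 2-week pairs moved up, as for 5.01% of all features. The change between weeks was 2.19 for Ehf, 2.08 for Prom1, 1.52 for Spp1, 1.06 for Sox9 and 0.84 for Cd24a, each with an adjusted p of 1 by limma. For Krt7 the same subtraction gives 3.16, which was not tested and carries no direction, because 6 of its 8 values were not well above background.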

How the results depend on the processing

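The agent difference over both weeks had 1 member called when arrays were scaled to their median, against 0 in the main setting, and 2 members then stayed above CCl4 in all 4 pairs, against 4. At 1 week 1 member was called. The count was 2 with median scaling (Ehf higher and Sox9 lower in TAA), 0 with quantile normalization and 0 without the filter on dim probes. It was 0 with the filter at all 8 arrays, which left Ehf untested, and it ranged from 0 to 2 when 1 array was left out. Cftr agent by week reversed to 0.18 with median scaling. With 1 array left out, Prom1 agent by week ran from -2.36 to 0.15 and Ehf week within TAA from -1.96 to 0.12 (both reversed without TAA 1-week NC). Krt19 and Prom1 agent at 2 weeks ran from -0.13 to 1.97 and from -0.0034 to 1.72 (reversed without TAA 2-week miR-29a), and Krt19 week within CCl4 from -2.48 to 0.54 (reversed without CCl4 1-week NC). Sox9 reversed for the agent, to 0.04 with the 1-week pair of either agent left out, which is its 2-week difference. For the week it reversed to -0.024 without the TAA 1-week pair, which is its difference within CCl4. The cause of the other reversals was not tested. Leaving out the CCl4 1-week pair was chosen after seeing the data. Over all features the 1-week calls numbered 6616, against 11806 with median scaling and 3878 without the dim filter, and the agent calls 0, against 5472 with median scaling. Taking matched combinations as a block called 0 members for the agent. A slide or scan block was not run, since all arrays share 1 slide and 1 scan. Signal near background limits Krt7, Epcam and Ehf.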
